A study of Mus musculus with 10 samples.

Results

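The genes described here are 10 members of the Notch pathway, 4 receptors (Notch1, Notch2, Notch3 and Notch4), 3 ligands (Jag1, Jag2 and Dll1) and 3 target genes (Hes1, Hey1 and Heyl). They were chosen by name, together with every probe-set that the array annotation assigned to one of them and to no other gene. This gave 18 of 22626 probe-sets, for 10 of 12393 named genes. All 10 arrays were used, and the purpose was to see which receptor and which ligand each population of the hair bulb carried, and where the targets were high.

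Expression was measured in 5 populations of cells isolated by fluorescence activated cell sorting (FACS) from mouse backskin at postnatal day 4 (P4), with 2 arrays for each. All of the mice carried both K14-H2BGFP, a nuclear green fluorescent protein (GFP) driven by the keratin 14 promoter of skin epithelium, and Lef1-RFP, a red fluorescent protein (RFP) driven by a fragment of the human Lef1 promoter. By the study's methods a preparation used the dermis of 5 backskins, and the 2 arrays of a population came from independent preparations. Hair matrix (Mx) cells, the dividing progenitors of the hair shaft, were low in GFP and lacked RFP, and outer root sheath (ORS) cells were high in GFP and lacked RFP. Dermal papilla (DP) cells, the mesenchymal cluster that the matrix surrounds, were high in RFP without GFP. The dermal fraction (DF), enriched in fibroblasts, lacked both reporters, and both DP and DF were first depleted of cells bearing CD34, CD45 or CD117. Melanocytes (Mc) were high in RFP, bore CD117 and lacked GFP. The RFP reporter marks the DP and Mc and not the Mx, where the mouse's own Lef1 gene is active, so DP and Mc were told apart by CD117 alone.

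Notch receptors span the cell membrane and bind Jagged or Delta-like ligands on neighbouring cells. Binding leads to cleavage of the receptor by an ADAM protease and then by gamma-secretase, and the freed intracellular part enters the nucleus and joins the DNA-binding protein RBPJ to switch on genes such as the Hes and Hey repressors. In hair follicles the pathway is known for its part in the differentiation of matrix descendants and in the upkeep of the melanocyte lineage, and in blood vessels Notch3 is known as the receptor of smooth muscle cells and pericytes.

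Each value is the MAS 5.0 signal of a probe-set, a linear intensity. A population was said to carry a gene where both of its arrays gave 200 or more for the brightest probe-set of that gene, a bound that stood in for a present call. The median signal of an array lay between 49.9 and 90.9, and 200 was reached by 5018 to 6650 probe-sets. Summed over 11 genes of hair matrix and shaft, 9 of the ORS, 8 of fibroblasts, 10 of the DP and 10 of Mc, each list was highest in the population it stands for. Single fibroblast genes were split. Col1a1, Col1a2, Col3a1 and Vim were highest in DF, but Pdgfra and Lum were higher in DP, and Dcn was highest in Mx (4725 and 3052). Of the list, 6 genes reached 200 on both arrays in DF and 8 in DP. Other cells were also seen in the DF arrays. There, 14 genes of pericytes and smooth muscle summed to 30497 and 35051, 13 endothelial genes to 4676 and 4302, 8 Schwann and glial genes to 6507 and 5244, and 4 lymphatic endothelial genes to 3322 and 2585. Red cell genes, almost all from Alas2, summed to 3666 and 4541 in DF and to at most 82 elsewhere. Melanocyte genes summed to 27889 and 17452 in DP and 14120 and 4477 in DF, against 40752 and 41770 in Mc. The hair matrix list came to 1473 in DF replicate 1 and 7231 in DF replicate 2.

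Tests compared log2(signal + 50) with limma over the 8054 probe-sets that reached 200 in both replicates of at least 1 population, and a call is an adjusted p under 0.05. A fold on this scale understates the change of a weak signal. Of the members, 12 probe-sets for 9 genes were tested, and no probe-set of Notch4 was among them. An exact permutation test of 2 arrays against 2 cannot go below p = 0.333, and the adjusted p-values thus draw on a spread shared by all populations and moderated across probe-sets. Levels of different genes are not set against each other, because probes differ in brightness. In sorted bulk RNA, fewer cells of a type and less RNA per cell cannot be told apart.

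Mx carried 7 of the 10 genes (Notch1, Notch2, Notch3, Jag1, Jag2, Hes1 and Heyl) and DP also 7 (Notch1, Notch2, Notch3, Jag1, Dll1, Hes1 and Hey1). ORS carried 6 (Notch1, Notch3, Jag1, Jag2, Dll1 and Hes1), and so did DF (Notch1, Notch2, Notch3, Jag1, Hes1 and Heyl). In Mc only Hes1 reached 200 in both replicates, and Mc carried no receptor and no ligand by this measure. Thus Jag1 was the ligand shared by Mx, ORS, DF and DP, Jag2 was confined by the bound to Mx and ORS, and Dll1 to ORS and DP. Dimmer probe-sets reached the bound in fewer populations, with Notch1 in Mx and ORS, Notch3 in DF alone, and Jag1, Notch2 and Heyl in none. That of Jag2 again reached it in Mx and ORS. Just inside the bound lay Heyl in Mx replicate 1 (206) and Notch2 in DP replicate 2 (213). Just outside it lay Heyl in DP replicate 2 (199) and Notch2 in ORS replicate 2 (196). The map depended on the bound. At 100 in place of 200, Mc carried Notch1 (121 and 134), Notch2 (153 and 162), Hes1 and Hey1. Dll1 was then carried by Mx, ORS, DF and DP, and Jag2 still by Mx and ORS. At 300 no population carried Jag1 or Dll1.

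**Figure D1:**
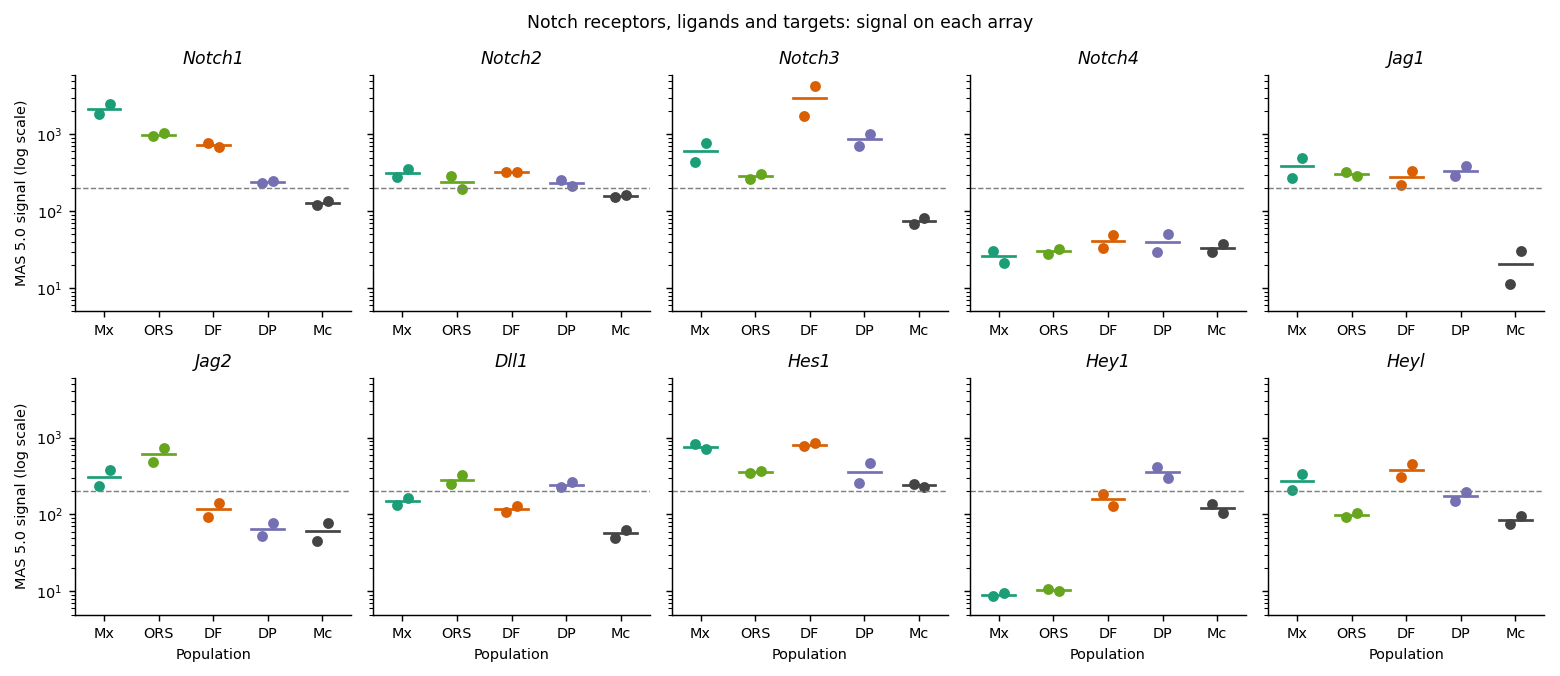
Signal of the brightest probe-set of each of the 10 genes, on a log axis, with a point for each array, a bar at the mean of the 2 arrays of a population and a dashed line at the bound of 200. Notch1 stepped down from Mx to Mc, Notch3 peaked in DF, Jag2 in ORS and Hey1 in DP, and Jag1 was between 11.2 and 30.4 in Mc against 222 or more elsewhere.

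Notch1, the receptor known for its roles in skin epithelium, was highest in Mx and fell off across the other populations. Its brighter probe-set (1418634_at) read 1856 and 2453 on the Mx arrays, then 947 and 1038.5 on those of ORS, 767 and 688 for DF, 232 and 244 for DP, and 121 and 134 for Mc. No array of Mx overlapped with any other population, and the order Mx, ORS, DF, DP, Mc held for every array. Notch1 was 4.84 times higher in Mx than in the mean of the other 4 populations (log2 difference 2.28, standard error 0.15, adjusted p = 2.57e-07) and exceeded ORS by 1.07 on the log2 scale (adjusted p = 0.00125). ORS and DF, neighbours in this order, did not differ past the threshold (log2 difference 0.42, 95% interval 0.02 to 0.83, adjusted p = 0.101), but did without Mx replicate 1 (0.0427) or 2 (0.0424). DF was above DP by 1.43 on the log2 scale (adjusted p = 1.31e-04). DP was above Mc by 0.70 (adjusted p = 0.0127), a call that was lost without DP replicate 1 (adjusted p = 0.0502), DP replicate 2 (0.0868) or Mc replicate 1 (0.0889), and under quantile normalization (0.0671). The dimmer probe-set (1418633_at) had the same order, from 304 and 591 in Mx to 87.8 and 134 in Mc. It too was higher in Mx than in the other 4 (log2 difference 1.11, standard error 0.21, adjusted p = 6.75e-04), and none of its neighbouring populations differed past the threshold. Mx was called above ORS under quantile normalization (adjusted p = 0.0281) and rescaling (0.0438), with the replicate block (0.034) and without Mx replicate 1 (1.11 against 0.68, adjusted p = 0.0113). ORS was called above DP under quantile normalization (0.0417), with the replicate block (0.0388), with only this pair fitted (0.0252) and without Mx replicate 1 or 2 (0.0305 each).

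Notch2 varied less between populations than Notch1 and Notch3, the other receptors that were carried. Its probe-set 1455556_at read 320.2 and 328 in DF, 278 and 359 in Mx, 286.5 and 196 in ORS, 256.5 and 213 in DP, and 153 and 162 in Mc. The signals of Mx overlapped with those of DF and ORS, and those of ORS with DP, while both DF arrays lay above ORS and DP. Both Mc arrays lay below every other array, the nearest being ORS replicate 2. Mc was below the mean of the other 4 by a factor of 1.57 (log2 difference -0.65, standard error 0.16, adjusted p = 0.00522), which missed the threshold without Mc replicate 1 (-0.62, adjusted p = 0.0597). No pair of neighbours in the order DF, Mx, ORS, DP, Mc differed past the threshold, and DF exceeded Mx by only 0.03 on the log2 scale (95% interval -0.41 to 0.47). The other Notch2 probe-set (1451889_at) ran from 1.5 to 48.9 and was not tested.

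Notch3 was highest in DF. Its brighter probe-set (1421965_s_at) gave 1746 and 4197 in DF, 703 and 1021 in DP, 437 and 770.4 in Mx, 261 and 307 in ORS, and 68.6 and 82.8 in Mc. The DF arrays lay above all others but differed between themselves more than any other pair of replicates of this probe-set, while Mc lay below all others. Notch3 was 7.04 times higher in DF than in the mean of the other 4 (log2 difference 2.82, standard error 0.28, adjusted p = 4.67e-06), and the log2 difference was 2.19 without DF replicate 2 and 3.44 without DF replicate 1. DF was above DP by 1.62 (adjusted p = 0.00556), which missed the threshold without DF replicate 2 (1.00, adjusted p = 0.066) or without DP replicate 1 (1.37, adjusted p = 0.0667). DP and Mx did not differ past the threshold (log2 difference 0.51, 95% interval -0.26 to 1.27), nor did Mx and ORS (0.92, adjusted p = 0.0892). Mx and ORS did so in several other settings (adjusted p from 0.0139 to 0.0465), which were a block for chip lot, fluidics station or replicate number, rescaling, only this pair fitted, and leaving out DF replicate 1 or 2. Mc was lower than the mean of the other 4 by a factor of 6.78 (log2 difference -2.76, adjusted p = 5.22e-06). The dimmer probe-set (1421964_at), with 505 and 1031 in DF and at most 157 elsewhere, showed the same order and stood 6.54 times above the mean of the other 4 in DF (2.71 on the log2 scale, standard error 0.24, adjusted p = 1.75e-06). With this probe-set DF was above DP by 2.06 (adjusted p = 3.76e-04), and no array left out ended that call.

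Genes of pericytes and smooth muscle, like Notch3, were highest in DF by their summed signal. Of the 14 genes, 10 reached 200 on both arrays in DF, 7 in DP, 5 in ORS, 1 in Mx and 0 in Mc. Their summed signal was 30497 and 35051 in DF, 5678 and 9281 in DP, 5497 and 6908 in ORS, and between 523 and 597 in Mx and Mc. The largest in ORS were the smooth muscle actin Acta2 (1938 and 2614), Tagln (1293 and 1666), Myl9 (1102 and 1114) and Cspg4 (716.5 and 973.1). Rgs5 (32.2 and 39.7) and Myh11 (17.6 and 32.7) were low there. In DF replicates 1 and 2, Pdgfrb, the PDGF receptor of pericytes that was also present in DP, read 883 and 2467, and Kcnj8, a potassium channel subunit of pericytes, 429.7 and 1005. Abcc9 (140.0 and 330.4) and Higd1b (161.8 and 269.3), both weaker, were also brighter in DF replicate 2. Tagln (2555.5 and 3514.9) and Myh11 (1508.9 and 2091.8) rose less. Other genes of the list had no such gap between the DF replicates, with 6184 and 6114 for Rgs5, 8748 and 8536 for Acta2 and 4226 and 4157 for the myosin kinase Mylk. Des was low in DF (64.9 and 95.9). Of 13 endothelial genes 5 reached 200 in DF, with summed signals of 4676 and 4302 against 318 to 989 elsewhere, and Vwf stayed at or below 12.3. The part of these cells in the Notch3 signal was not tested.

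**Figure D2:**
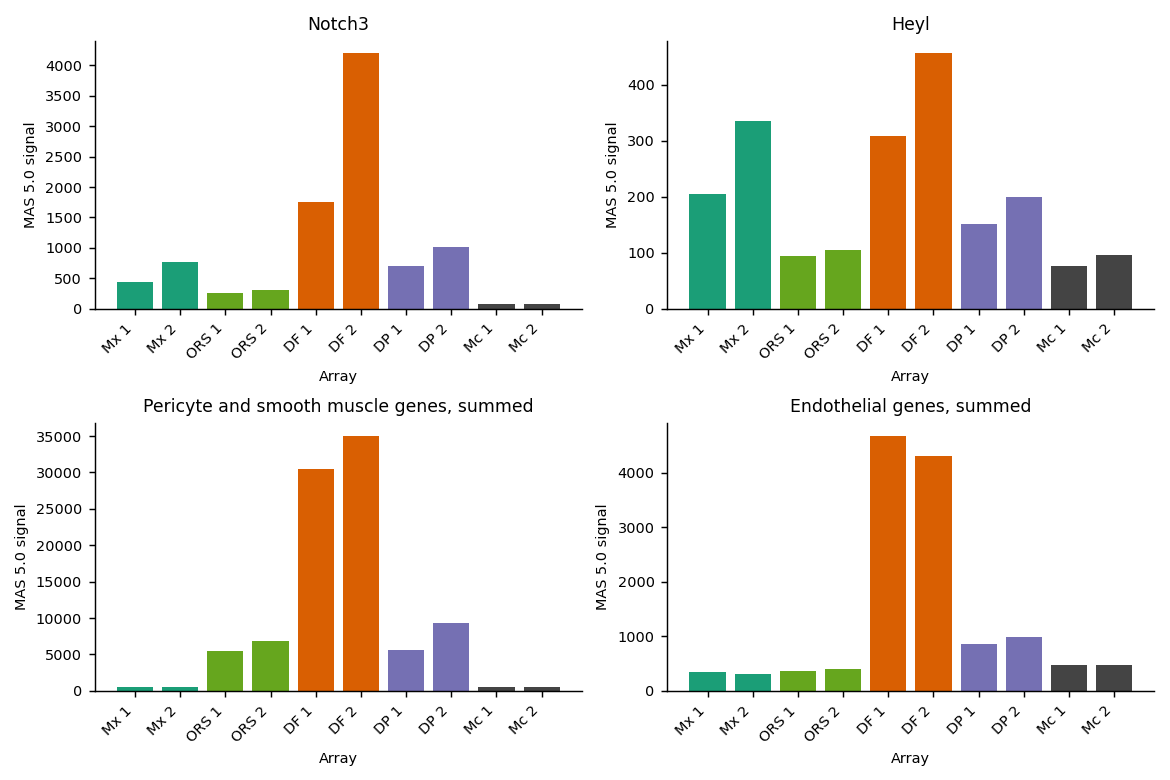
Signal of Notch3, of Heyl and of the summed pericyte and smooth muscle genes (14) and endothelial genes (13) on each of the 10 arrays, as bars from 0 on linear axes. Notch3 (1746 and 4197) and both summed lists were highest in DF, while Heyl was 309 and 456 in DF and 206 and 335 in Mx, where both lists were low.

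Notch4, a receptor known from endothelial cells, was not carried by any population. Its probe-sets read 21.4 to 50.4 (1456263_at) and 8.8 to 27.9 (1449146_at) over all 10 arrays, and the populations overlapped. In DF, where endothelial genes were seen, the brighter probe-set read 33.5 and 48.5.

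Jag1, the ligand Jagged 1, was present at similar signals in 4 populations and nearly absent from Mc. Its brighter probe-set (1421106_at) read 268 and 498 in Mx, 289 and 386 in DP, 322 and 287 in ORS, 222 and 339 in DF, and 11.2 and 30.4 in Mc. All arrays but those of Mc overlapped. Jag1 was lower in Mc than in the mean of the other 4 by a factor of 5.26 (log2 difference -2.39, standard error 0.22, adjusted p = 2.1e-06), and DF, the next lowest, was above Mc by 2.21 (adjusted p = 2.81e-05). None of the neighbours Mx, DP, ORS and DF differed past the threshold, with log2 differences of 0.12, 0.12 and 0.13 and 95% intervals that together ran from -0.47 to 0.72. Mx was above the mean of the other 4 by 0.82 (adjusted p = 0.00609), a call that was lost without Mx replicate 2 (0.43, adjusted p = 0.139). The mean of the other 4 includes Mc, as it does for the DP call (log2 difference 0.68, adjusted p = 0.0277), which was lost with no signal filter (adjusted p = 0.0833) and without DP replicate 1 (0.057), DP replicate 2 (0.272) or Mc replicate 1 (0.0509). The dimmer probe-set (1421105_at) ran from 26.4 to 163 and was not tested.

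Jag2, the ligand Jagged 2, was an epithelial gene in these data. Its brighter probe-set (1426430_at) gave 488 and 739.9 in ORS, 237 and 381 in Mx, 92.7 and 139.9 in DF, 51.9 and 78.4 in DP, and 44.9 and 77.3 in Mc. The ORS arrays lay above all others, Mx lay above the remaining populations, and DP and Mc overlapped. ORS was 3.97 times higher than the mean of the other 4 (log2 difference 1.99, standard error 0.21, adjusted p = 1.21e-05). Mx was above DF by 1.10 (adjusted p = 0.00444). The step from ORS to Mx was 0.89 (adjusted p = 0.0342) and was lost with pseudocounts of 16 and 1 (adjusted p = 0.0554 and 0.093), with no signal filter (0.116), under both other scalings (0.0692 and 0.0585), when chip lot was a block (0.065) and without Mx replicate 1 (0.264) or ORS replicate 2 (0.267). The probe-set 1426431_at showed this step more clearly, with 735 and 824 in ORS against 220.0 and 361 in Mx (log2 difference 1.31, adjusted p = 0.00202), and no setting ended it. It fell to 43.3 and 98.3 in DF and to between 13.0 and 16.8 in DP and Mc, and was 7.26 times higher in ORS than in the mean of the other 4 (log2 difference 2.86, standard error 0.20, adjusted p = 4.04e-07).

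Dll1, the ligand Delta-like 1, peaked in ORS and DP. Its single probe-set (1419204_at) gave 246 and 321 in ORS, 224.5 and 262 in DP, 132.5 and 163 in Mx, 109 and 128 in DF, and 50 and 63.5 in Mc. ORS and DP overlapped and lay above every array of the other populations. ORS was above the mean of the other 4 by 0.89 on the log2 scale (standard error 0.15, adjusted p = 5.46e-04), and DP by 0.66 (adjusted p = 0.0047), the latter lost without DP replicate 2 (0.57, adjusted p = 0.0877). ORS exceeded DP by 0.18 with a 95% interval from -0.24 to 0.60. DP was above Mx by 0.57 (adjusted p = 0.0226), a call lost under quantile normalization (0.34, adjusted p = 0.101), with a block for chip lot or for fluidics station (0.0604 and 0.0601), with only these 2 populations in the fit (0.0568) and without Mx replicate 1 (0.096) or DP replicate 2 (0.136). Mx and DF did not differ past the threshold (0.23, adjusted p = 0.338), except under quantile normalization (0.53, adjusted p = 0.0179). DF was above Mc by 0.66 (adjusted p = 0.0161), lost under quantile normalization (0.0561) and without DF replicate 2 (0.103) or Mc replicate 1 (0.119).

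Promoter sequences of Jag1 and Jag2 are shown because ORS carried both of these ligands and DP only Jag1, with matches to a sequence bound by Hes and Hey repressors in capitals. The windows come from RefSeq (GRCm38.p6) and hold 250 bases before and 50 bases after an annotated transcript start, so that the last 50 are transcribed from that start. In that build Jag1 spans chr2:137081451-137116520 and Jag2 chr12:112907803-112929812. The Jag1 window is set on the outer end of the gene, and the Jag2 window on an internal start, so all of it lies within the gene span. The Jag1 window is chr2:137116471-137116770 and the Jag2 window chr12:112929446-112929745, both on the minus strand and printed 5′ to 3′ along the gene.
Jag1: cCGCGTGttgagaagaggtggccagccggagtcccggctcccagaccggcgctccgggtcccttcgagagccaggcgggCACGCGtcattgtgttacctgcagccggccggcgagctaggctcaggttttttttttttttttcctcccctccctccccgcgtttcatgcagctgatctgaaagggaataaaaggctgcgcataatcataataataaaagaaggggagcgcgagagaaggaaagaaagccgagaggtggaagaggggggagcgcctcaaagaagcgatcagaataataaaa
Jag2: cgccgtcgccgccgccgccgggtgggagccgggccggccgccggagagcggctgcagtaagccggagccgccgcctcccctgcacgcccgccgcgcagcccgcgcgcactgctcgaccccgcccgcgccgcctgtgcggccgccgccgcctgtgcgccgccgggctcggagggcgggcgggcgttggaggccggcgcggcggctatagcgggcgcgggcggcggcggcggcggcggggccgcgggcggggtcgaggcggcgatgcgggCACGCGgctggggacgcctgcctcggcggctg
The letters searched were CACGCG on either strand (CGCGTG on the other), a class C site of Hes and Hey proteins. Jag1 had matches 249 and 171 bases before the start and Jag2 had 1 match 18 bases after it. A table of promoters held 8 windows for 7 of the 10 genes, with 2 for Dll1, and 4 of the 8 windows had a match (Notch2, Jag1, Jag2 and 1 of those of Dll1), against 9.27% of 32851 promoters of the same length. The RBPJ core TGGGAA or its complement TTCCCA was found in 0 of the 8 windows and in 25.6% of all promoters. For neither sequence were the promoters matched to the windows in base composition, so the shares are not a like background. The target genes Hes1, Hey1 and Heyl had no window, so neither sequence was searched in their promoters. A match is a description of letters, not a site in use.

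Hes1, a transcriptional repressor and the best known target, was carried by all 5 populations and was high in DF and Mx. Its probe-set (1418102_at) gave 777.5 and 841 in DF, 829 and 700.4 in Mx, 345 and 362.5 in ORS, 256 and 461 in DP, and 249.7 and 230.1 in Mc. DF and Mx overlapped with each other and with no other population. DF was above the mean of the other 4 by 0.96 on the log2 scale (standard error 0.18, adjusted p = 0.00119) and Mx by 0.86 (standard error 0.18, adjusted p = 0.00141), while DF and Mx differed by 0.08 (95% interval of Mx minus DF from -0.58 to 0.41). Mx was above ORS by 1.01 (adjusted p = 0.00715), which missed the threshold without Mx replicate 1 (0.89, adjusted p = 0.0627). ORS and DP differed by 0.03 (95% interval -0.46 to 0.53), and DP and Mc by 0.45 (adjusted p = 0.165), or by 0.82 without DP replicate 1 (adjusted p = 0.0209). The DP replicates were far apart, and without DP replicate 2 the DP lay below the mean of the other 4 by 0.81 (adjusted p = 0.0138), against 0.44 with both arrays (adjusted p = 0.0769).

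Hey1, a related repressor, had a different pattern, high in DP and close to the floor in both epithelial populations. Its probe-set (1415999_at) gave 416 and 302.5 in DP, 187 and 128 in DF, 135 and 104 in Mc, 10.6 and 10 in ORS, and 8.6 and 9.5 in Mx. The DP arrays lay above all others, DF and Mc overlapped, and every array of ORS and Mx lay far below them. Hey1 was 3.85 times higher in DP than in the mean of the other 4 (log2 difference 1.94, standard error 0.16, adjusted p = 1.44e-06). Mx and ORS were lower by 1.53 and 1.49 (adjusted p = 8.3e-06 and 1.59e-05), and these differences are understated on this scale because the signals lie under the pseudocount. DP was above DF by 0.98 (adjusted p = 0.00466), lost without DF replicate 2 (0.78, adjusted p = 0.0614) or DP replicate 1 (0.78, adjusted p = 0.0705). DF and Mc did not differ past the threshold (0.28, 95% interval -0.17 to 0.73), Mc was above ORS by 1.49 (adjusted p = 7.69e-05), and ORS and Mx differed by 0.03. Melanocyte genes were also seen in DP (8 of 10 at 200), and their part in the Hey1 signal of DP was not tested.

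Heyl, the third Hey family repressor, was highest in DF and next in Mx. Its brightest probe-set (1419302_at) gave 309 and 456 in DF, 206 and 335 in Mx, 151 and 199 in DP, 93.4 and 104 in ORS, and 75.8 and 95.3 in Mc. DF and Mx overlapped, and DP lay between them and the low pair of ORS and Mc, which overlapped too. DF was 2.20 times higher than the mean of the other 4 (log2 difference 1.14, standard error 0.19, adjusted p = 4.54e-04). Mx was above it by 0.59 (adjusted p = 0.018), a call lost without Mx replicate 2 (0.29, adjusted p = 0.255). No neighbours in the order DF, Mx, DP, ORS, Mc differed past the threshold. Mx was called above DP under quantile normalization (0.73 against 0.49, adjusted p = 0.00988), rescaling (0.0352), with the chip lot or the replicate number as a block (0.0384 and 0.0348) and without Mx replicate 1 (0.0241). DP was called above ORS with the replicate block (0.0214) and without Mx replicate 1 (0.0359) or 2 (0.0361), and DF above Mx without Mx replicate 2 (0.0268). DF exceeded ORS by 1.52 (adjusted p = 2.74e-04) and above Mc by 1.66 (adjusted p = 1.07e-04). Both dimmer probe-sets were untested and also highest in DF, with 126 and 258 (1438886_at) and 63.3 and 156 (1419303_at). The ORS signals of these were 7.0 or less. As for Notch3, DF replicate 2 was the brighter of the DF arrays for all 3 Heyl probe-sets, and the part of the pericyte and endothelial genes in the DF value was not tested.

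**Figure D3:**
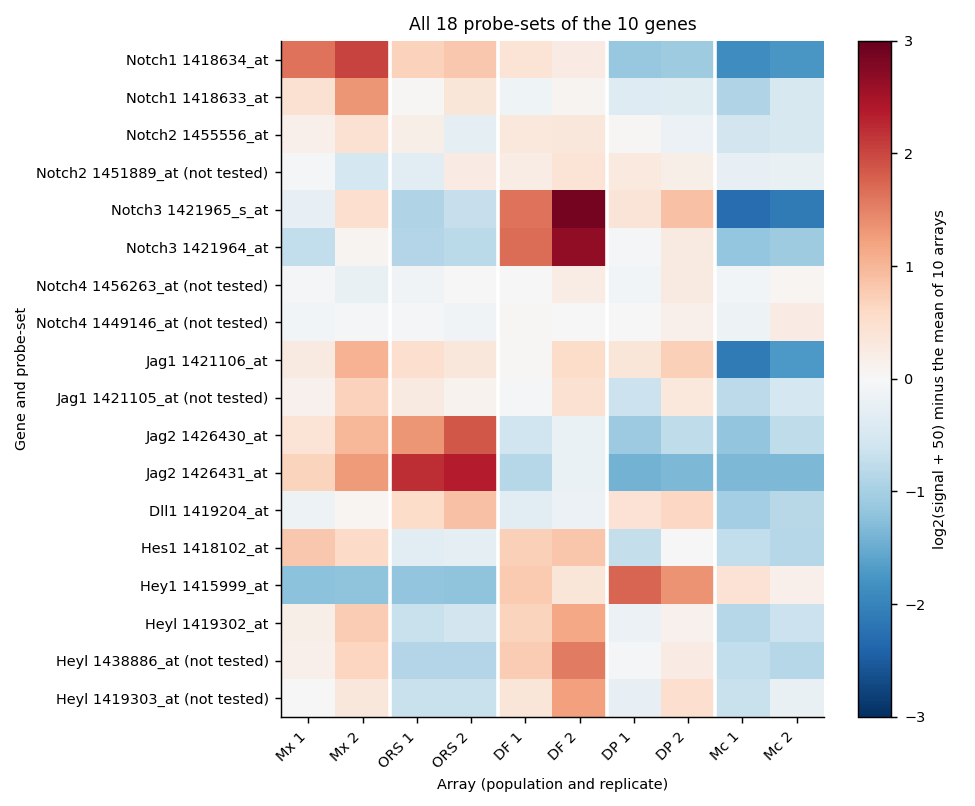
log2(signal + 50) of each of the 18 probe-sets on each array, minus the mean of that probe-set over the 10 arrays, with red above and blue below the mean. Probe-sets of 1 gene had like patterns for Notch1, Notch3, Jag2 and Heyl, and untested probe-sets, under 200 in at least 1 replicate of every population, are marked.

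Counted over the 12 tested probe-sets, Mx was higher than the mean of the other 4 for 7 and lower for 1 (Hey1), where 23.1% and 34.2% of all tested probe-sets were called higher and lower. ORS was higher for 4 and lower for 4, against 18.1% and 15.6%, and without ORS replicate 1 these 8 calls became 5. DF was higher for 5 and lower for 1 (Jag2), against 20.3% and 9.35%, and the Jag2 call (-0.66, adjusted p = 0.022) was lost without DF replicate 1 (-0.33, adjusted p = 0.416). For DP 4 were higher and 3 lower, against 20.1% and 16.8%. The Notch3 call among these (1421965_s_at, 0.79, adjusted p = 0.042 from limma) was lost with no signal filter (adjusted p = 0.135). Its log2 difference was 1.04 without DP replicate 1 and 0.53 without DP replicate 2. The dimmer Notch3 probe-set gave 0.14 in DP and was not called. In Mc 0 were higher and 11 lower, against 16% and 28.5%, and the exception was Hey1 (log2 difference 0.37, adjusted p = 0.0898 from limma), which was called higher in Mc with pseudocounts of 16 and 1, both other scalings and the chip lot or fluidics station as a block (adjusted p from 6.27e-04 to 0.0465). The median log2 difference of the members in Mc was -1.19, against -0.14 for all tested probe-sets, and in Mx it was 0.70 against -0.13. For the other populations the medians were 0.10 in ORS, 0.41 in DF and -0.06 in DP, against 0.06, 0.01 and 0.01. A member entered the test through the populations where it reached 200, and only Hes1 did so in Mc, so these counts are a description and support nothing. Several of the 12 probe-sets also share a gene.

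**Figure D4:**
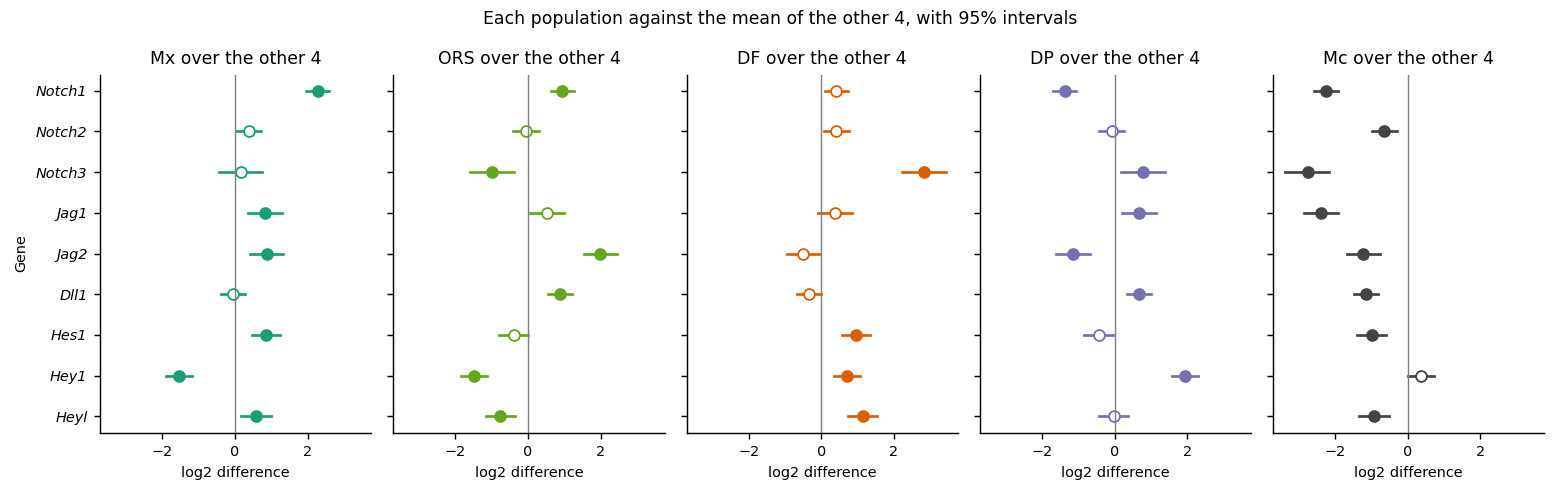
log2 difference of each population from the mean of the other 4 for the brightest probe-set of the 9 tested genes, with 95% intervals as lines and filled points for an adjusted p under 0.05. Notch1 stood out to the right in Mx (2.28), Jag2 in ORS (1.99), Notch3 in DF (2.82) and Hey1 in DP (1.94), and 8 of the 9 genes lay to the left in Mc.

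Between pairs of populations, 6 of the 12 probe-sets differed in Mx against ORS, where 19.4% of all tested probe-sets did, and 8 in DF against DP, where 19.0% did. Across the epithelial and mesenchymal divide, 7 differed in Mx against DF (52.2% of all) and 7 in Mx against DP (58.1%), 8 in ORS against DF (34.9%) and 6 in ORS against DP (40.1%). Against Mc, all 12 differed for Mx (50%), 8 for ORS (41.0%), 9 for DF (36.3%) and 7 for DP (30.5%), the last falling to 4 without DP replicate 2 or Mc replicate 1. In Mx against ORS, Notch1, Hes1 and Heyl were higher in Mx and Jag2 and Dll1 in ORS. Of these, the Dll1 difference (-0.75, adjusted p = 0.015) was lost without Mx replicate 1 (0.0819) or ORS replicate 2 (0.146) and with only these 2 populations in the fit (0.0615). In DF against DP, Notch1, Notch3, Jag2, Hes1 and Heyl were higher in DF, and Dll1 and Hey1 in DP. This count depended on single arrays, with 4 probe-sets called without DF replicate 2 and 3 without DP replicate 1. The brighter Notch1 probe-set and the dimmer Notch3 probe-set were called whichever array was left out, and each of the other 6 was lost without at least 1 array. Most pairs share a population, so their counts do not add up as separate evidence.

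A list of 63 other genes of the pathway, taken by function, held 54 on the array and 31 that were tested. Relative to the other 4 populations, 4 of the 31 were higher and 17 lower in Mx, 1 higher and 9 lower in ORS, 8 higher and 1 lower in DF, 12 higher and 2 lower in DP, and 4 higher and 10 lower in Mc. The median log2 difference of the 31 was highest in DP (0.21) and DF (0.09), and it was -0.07 in ORS, -0.17 in Mc and -0.38 in Mx. The shares of all tested probe-sets called in these directions are those given above for the members. Each gene is given below by its brightest probe-set. Among other ligands 3 of 8 were tested. Dlk1, a non-canonical ligand, read 1013.5 and 1323 in DP, 670.0 and 1009.9 in DF, 194 and 411 in Mc and at most 54.1 in Mx and ORS, and was 5.22 times higher in DP than in the mean of the other 4 (log2 difference 2.38, adjusted p = 3.57e-06). Egfl7, known from endothelium, read 464 and 340.1 in DF and at most 111 elsewhere (log2 difference 1.71, adjusted p = 1.56e-06). Mfap2, a microfibril protein that binds Notch ligands and receptors, read 1231 and 1380.3 in DP, 937 and 946 in DF, 409 and 531 in ORS, and at most 92.6 in Mx and Mc, and was lower in Mc than in the mean of the other 4 by a factor of 5.32 (log2 difference -2.41, adjusted p = 4.61e-06). Dll3 and Dll4 did not exceed 58.3 and 54.9 on any array.

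Of the enzymes that modify or cut the receptor, the Fringe list had 1 tested gene, Rfng, whose signals ran from 244 to 305 with no call. Among 7 tested genes of receptor cleavage, 3 were higher and 1 lower in Mc, against 16% and 28.5% of all tested probe-sets. Psen2, a catalytic subunit of gamma-secretase, read 508 and 818.5 in Mc, 297 and 188 in DP, 196.5 and 149.7 in DF, and at most 75.1 in Mx and ORS. It was 4.28 times higher in Mc than in the mean of the other 4 (log2 difference 2.10, adjusted p = 3.4e-06). Adam10, the protease of the first cut, read 1938 and 2206 in Mc and at most 1160.0 elsewhere and was 2.63 times higher (log2 difference 1.40, adjusted p = 1.91e-05), and Aph1a, another gamma-secretase subunit, was 1.69 times higher (log2 difference 0.75, adjusted p = 0.00407). In Mc, where no receptor or ligand reached the bound, these 3 genes of cleavage stood above the other populations. Furin, Adam17, Ncstn and Psenen, also tested, were not called higher in Mc, and the mean of Furin was lowest there (164).

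In the nucleus, Rbpj itself was even, from 218 to 316 over all arrays, and was called in no population. Tle2, a Groucho-type co-repressor, read 1537 and 1504 in DP, 201 and 159 in DF, and at most 68.3 on any other array. It was 16.9 times higher in DP than in the mean of the other 4 (log2 difference 4.08, adjusted p = 1.16e-09). Tle3, from the same family, was instead higher in Mx, with 617.5 and 1098 there (log2 difference 0.89, adjusted p = 0.00215), and Hdac1, a histone deacetylase, was lower in Mc (-0.86, adjusted p = 5.28e-04). Among genes of endocytosis and turnover 5 of the 8 tested were higher in DP, against 20.1% of all tested probe-sets. Dtx1, a Deltex ubiquitin ligase, read 398 and 341 in DF against at most 173 elsewhere (log2 difference 1.62, adjusted p = 1.68e-06 from limma). Fbxw7, which marks the Notch intracellular domain for breakdown, read 298 and 294 in DP and at most 173 elsewhere (1.01 on the log2 scale, adjusted p = 3.99e-04), and Dtx2, another Deltex gene, was higher in Mx (0.98, adjusted p = 0.00169).

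Of 7 other Hes and Hey factors and feedback genes, Hey2 and Nrarp were tested. Hey2 read 312 and 499 in DP, 30.9 and 50.8 in DF, 32.2 and 48.3 in Mc, and at most 3.9 in Mx and ORS, where it is listed at 0 in Mx replicate 2. It was 6.5 times higher in DP on the scale used (log2 difference 2.70, adjusted p = 1.12e-07), beside Hey1. Nrarp, which feeds back on the Notch transcription complex, read 959 and 1127 in DF, 492 and 785 in Mx, 410.5 and 547 in ORS, 152 and 159 in DP, and 70.3 and 75.5 in Mc. The DF, Mx and ORS arrays all lay above those of DP, and those of DP above Mc, and Nrarp was lower in Mc than in the mean of the other 4 by a factor of 4.31 (log2 difference -2.11, adjusted p = 1.16e-06). Of the untested genes, Hes6 read 132 and 161 in Mc, 123 and 127 in Mx, and 58.4 and 84.8 in ORS, where it was lowest. Hes5, Hes2, Hes3 and Hes7 did not exceed 31.9, 17.3, 44.5 and 39.0.

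**Figure D5:**
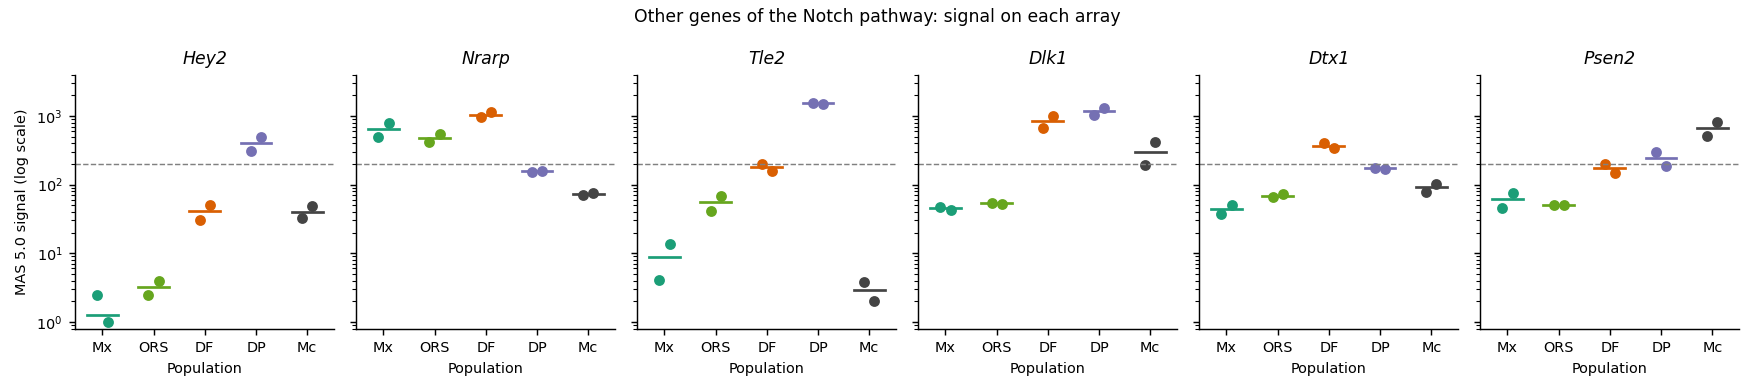
Signal of 6 other genes of the pathway on a log axis, with a point for each array, a bar at the mean and a dashed line at 200, the value listed at 0 for Hey2 in Mx replicate 2 being drawn at 1. Hey2, Tle2 and Dlk1 were highest in DP, Nrarp and Dtx1 in DF, and Psen2 in Mc (508 and 818.5).

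The genes whose profiles over the 10 arrays were most like those of the members were found among 5253 genes by Pearson's r of log2(signal + 50). The arrays are pairs of replicates of 5 populations, so these values describe shared differences between populations and carry no test. Notch1 was most like Klf5 (r = 0.982), Nop53 (0.977) and Cdkn1a (0.976), and Notch2 like Ankrd13a (0.915), Tnks1bp1 (0.899) and Klf4 (0.894). Notch3 was most like Ndel1 (0.988), Cdc42ep5 (0.943) and Rgcc (0.94). Among the ligands, Jag1 was most like Atf5 (0.972), Cd24a (0.971) and Erbb2 (0.97), Jag2 like Bnc1 (0.985), Tenm2 (0.982) and Dsg2 (0.98), and Dll1 like Efs (0.951), Tbl1xr1 (0.95) and Hoxa5 (0.949). Of these, Bnc1 is a transcription factor of basal keratinocytes and Dsg2 a desmosomal cadherin. Among the targets, Hes1 was most like Mgst3 (0.948), Metrnl (0.943) and Kitl (0.939), and Hey1 like Serpinf1 (0.99), Plod2 (0.981) and Nbea (0.979). Heyl was most like Ppp2r5a (0.936), Ndel1 (0.911) and Dbndd2 (0.909), so Ndel1 stood in the lists of both Notch3 and Heyl.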

How the data were processed

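Expression was profiled on MOE430A oligonucleotide arrays in 10 samples, 2 for each of 5 FACS-isolated populations. The deposited values are linear signal intensities, computed and scaled by the authors with MAS 5.0 (MAS5 in the submitters' processing notes) from the probes of each probe-set. Per the methods, signals were scaled to 1 target over all probe-sets, and the trimmed means in the deposited table ran from 163.48 to 197.4, so the scaling was kept as found and alternatives were run. The authors' present calls and Robust Multi-Chip values were not used here. Run records of the arrays gave the chip lot (6 arrays in 1 lot, 4 in another) and the fluidics station. Both Mx arrays were in the larger lot, and every other population had 1 array in each lot. DP replicate 2 and Mc replicate 2 alone shared a station and a fluidics protocol that no other array had. Lot and station were used as blocks, and the lot also for values within each lot.

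Of 22690 probe-sets, 64 controls were left out, and 20380 had 1 gene symbol in the platform annotation, 691 several and 1555 none. Probe-sets with several symbols were not named. The brightest probe-set over the 10 arrays stood for a gene. Groups were taken from the sample labels. The 8054 probe-sets for which some population had 200 or more on each of its arrays were tested on log2(signal + 50) with limma 3.58.1 in R 4.3.3, with 5 group means, no block, and Benjamini-Hochberg adjustment within each of 5 contrasts of 1 population with the mean of the other 4 and 10 pairwise contrasts. Intervals are 95% intervals from the moderated standard errors. The test was checked on simulated data. Tables were handled in Python 3.11.15 with pandas 2.3.3 and numpy 2.4.6.

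All probe-sets of the 10 genes were described. Other pathway genes were named where they were among the up to 3 of a list by function with the largest called difference of a population from the mean of the other 4. Rfng, Rbpj, Dll3, Dll4, Hes2, Hes3, Hes5, Hes6 and Hes7 lay outside that rule and were named after their values were seen. For each tested member the 3 genes of highest Pearson r were named. The members and lists were chosen with earlier results of these data known. Alternatives were pseudocounts of 16 and 1, a signal filter of 100 or none, bounds of 100 and 300 or 1 replicate for a carried gene, quantile normalization, rescaling to 1 trimmed mean, limma with an intensity trend and robust prior, chip lot and replicate number as blocks, values within each lot, only the populations compared, and leaving out each array. Fluidics station as a block was added after seeing the data. The methods call the replicates independent datasets, and the labels do not say that a replicate number links populations. The precision is limited by the 2 arrays of each population.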

Additional observations from a re-analysis of the deposited data

How the results depend on the processing

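No called difference of a member changed direction under any alternative. With a bound of 300 in place of 200, 13 of the 27 pairs of gene and carrying population were left. With each array left out in turn, the member probe-sets called for ORS against the mean of the other 4 numbered 5 to 9 (8 with all arrays), for DF against DP 3 to 8 (8) and for DP against Mc 4 to 8 (7), the lowest being without ORS replicate 1, without DP replicate 1, and without DP replicate 2 or Mc replicate 1. For Mx against ORS and for ORS against DP they numbered 4 to 8 (6 each). The log2 difference of Notch3 in DF ran from 2.19 to 3.44 and that of Jag1 in Mx from 0.43 to 1.22, the lowest without Mx replicate 2 (adjusted p = 0.139), while Notch2 in DF (0.42, adjusted p = 0.0705) passed the threshold without Mx replicate 2 (0.0358) or ORS replicate 1 (0.0432). Within chip lot 1 the Notch3 difference of DF replicate 1 from the mean of the other 4 populations was 2.30. Chip lot 2 held no Mx array, and there DF replicate 2 exceeded the mean of ORS, DP and Mc by 3.52. Each value rests on a single DF array, and the 2 comparisons are not alike. Of counts of called probe-sets or of carrying pairs under the alternatives, 307 were within 1.5 times the count reported and 6 were not, those named above and DF against DP without DF replicate 2 (4). Of the values for single genes 214 kept their direction and, where tested, their side of the threshold, or their number of carrying populations within 1.5 times, 9 numbers of carrying populations moved further, all under bounds of 100 or 300, and the other 3 are those of Notch2 and Jag1 above. The cause was not tested. Quantile normalization moved the median of all tested probe-sets in Mx from -0.13 to -0.01 and in Mc from -0.14 to -0.02, and rescaling moved that in DF from 0.01 to -0.12.

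Same-numbered arrays of different populations deviated together weakly (correlations from -0.05 to 0.34, over 0.1 in 5 of 10 pairs). The highest were Mx with ORS (0.34) and DF with DP (0.275), and the mean correlation was positive for all 5 populations. The labels do not say whether a number links populations, and these values do not decide it. With the replicate number as a block 8 member probe-sets were called for each of Mx, DF and DP, 9 for ORS and 11 for Mc. Of all calls on members, 12 were gained and 0 lost with this block, and by pair the count went from 6 to 8 for Mx against ORS and for ORS against DP, from 7 to 8 for Mx against DP, from 8 to 9 for DF against DP and from 9 to 11 for DF against Mc. Each group held 2 arrays, and signals near or under the pseudocount of 50 carry little information on fold.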

Other observations

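Across the 10 arrays, which are replicate pairs of 5 populations, the profiles of some members ran together. Pearson's r of log2(signal + 50) was 0.91 between Notch3 and Heyl, 0.87 between Hes1 and Heyl and 0.80 between Notch2 and Heyl. It was 0.79 between Jag1 and Dll1, and 0.78 for Notch2 with Hes1, Notch2 with Jag1 and Notch1 with Jag2. Hey1 ran opposite to Jag2 (-0.87) and to Notch1 (-0.73). These values describe shared differences between populations and carry no test.

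The DF arrays were apart for Notch3 and for some other genes, and close for others, of which examples were chosen after their values were seen. Krt35, a hair shaft keratin, read 398 and 2338 in DF replicates 1 and 2, and Pdgfrb 883 and 2467, while Rgs5 read 6184 and 6114 and Acta2 8748 and 8536. The part of other cells in this gap was not tested.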
